A study of Mus musculus with 6 samples.

Results

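A set of 10 mouse genes that make and load peptides for MHC class I, namely Tap1, Tap2, Tapbp, Psmb8, Psmb9, Psmb10, Psme1, Psme2, Erap1 and Nlrc5, was followed in bEND.3 cells after knockdown of the long non-coding RNA Gm39822. They were taken by gene symbol, and all 10 were found among the 49315 genes of the count table. bEND.3 is a permanent cell line derived from the endothelium of mouse brain. The GapmeR group held 4 samples transfected with a custom antisense LNA GapmeR against Gm39822 at 100 nM, and the Negative Control group held 2 samples transfected with a negative control LNA GapmeR at 100 nM. GapmeRs pair with their target RNA, and the DNA between their locked nucleic acid (LNA) flanks recruits RNase H, which cuts the RNA. The agent in both groups was Lipofectamine 2000, with cells grown in DMEM/F12 with 10% serum, and the labels name no cytokine treatment. The data thus cover a single cell line and a single knockdown reagent. Nothing states that the samples came from separate cultures, so p-values measure only the spread between these samples, which may be technical.

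The proteasome cuts cytosolic proteins into peptides in the barrel of its core particle. Interferon, best known in endothelium as a signal of inflammation, induces the immunoproteasome, in which Psmb8, Psmb9 and Psmb10 take the places of the constitutive catalytic subunits Psmb5, Psmb6 and Psmb7. It also induces the PA28 activator, built of Psme1 and Psme2, which opens the core. Tap1 and Tap2 then carry peptides into the endoplasmic reticulum, Erap1 trims them, and tapasin (Tapbp) holds the class I molecule at the transporter while peptides are exchanged. Nlrc5 acts in the nucleus as a transactivator of class I genes and of several genes of this route.

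Psmb9, Tap1, Psmb8 and Tap2 lay side by side in the MHC class II region of chromosome 17. In GRCm38.p6, Psmb9 (chr17:34182030-34187330), Tap1 (chr17:34187556-34197225), Psmb8 (chr17:34198195-34201454) and Tap2 (chr17:34204479-34216321) spanned 34.3 kb, with 225 bases between Psmb9 and Tap1 and 969 bases between Tap1 and Psmb8. Tapbp lay on the same chromosome (chr17:33919478-33929290). Psme1 (chr14:55578494-55581527) and Psme2 (chr14:55587440-55591101) were 5.91 kb apart. Erap1 (chr13:74639573-74693205), Psmb10 (chr8:105935728-105938392) and Nlrc5 (chr8:94434335-94527272) lay elsewhere.

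Promoter windows of RefSeq on GRCm38.p6, each 300 bases long, were matched for 8 of the 10 genes, in 9 windows. Those of Psmb8, Erap1 and Psme1 are shown because they held letters of an interferon-related motif, and that of Tap1 because Psmb9 starts from the other strand of the same stretch. Each is read 5′ to 3′ on the plus strand, from 250 bases before the start to 25 bases after it, and capitals mark matches to the GAS motif TTCNNNGAA, an element of promoters that respond to interferon gamma, or to GAAANNGAA, the core letters of the interferon-stimulated response element. The windows are Psmb8 at chr17:34197945-34198219, Erap1 at chr13:74639603-74639877, Psme1 at chr14:55578244-55578518 and Tap1 at chr17:34187306-34187580.
Psmb8: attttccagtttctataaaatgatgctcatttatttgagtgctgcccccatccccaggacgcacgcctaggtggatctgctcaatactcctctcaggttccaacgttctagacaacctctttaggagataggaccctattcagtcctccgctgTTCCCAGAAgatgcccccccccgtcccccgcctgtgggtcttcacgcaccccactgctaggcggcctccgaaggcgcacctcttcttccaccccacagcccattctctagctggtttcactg
Erap1: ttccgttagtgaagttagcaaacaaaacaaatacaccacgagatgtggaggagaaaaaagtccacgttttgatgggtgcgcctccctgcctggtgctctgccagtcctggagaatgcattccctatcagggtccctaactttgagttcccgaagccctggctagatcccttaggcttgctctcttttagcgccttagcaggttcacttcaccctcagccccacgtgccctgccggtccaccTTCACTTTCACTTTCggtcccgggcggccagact
Psme1: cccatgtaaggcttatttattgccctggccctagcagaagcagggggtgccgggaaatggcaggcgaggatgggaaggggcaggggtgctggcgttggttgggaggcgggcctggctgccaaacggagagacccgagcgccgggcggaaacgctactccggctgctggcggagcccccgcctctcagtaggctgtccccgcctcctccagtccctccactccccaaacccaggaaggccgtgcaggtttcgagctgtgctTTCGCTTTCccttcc
Tap1: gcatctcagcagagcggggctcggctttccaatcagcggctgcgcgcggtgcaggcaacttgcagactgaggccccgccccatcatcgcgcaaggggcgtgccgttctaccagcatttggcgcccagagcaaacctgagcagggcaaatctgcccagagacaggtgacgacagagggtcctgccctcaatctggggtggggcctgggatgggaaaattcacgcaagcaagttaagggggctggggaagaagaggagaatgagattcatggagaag
The Erap1 window surrounds a start that lies inside the span given above for the gene. The Psmb8 window held TTCCCAGAA, a GAS match, beginning at position -97 from the start. Erap1 held the response element core on the other strand, as TTCACTTTC, at -9 and again at -3, the copies overlapping each other. Psme1 held it as TTCGCTTTC beginning at position 11, counted from 1 at the start. Over all 32851 windows and both strands, the GAS letters were in 8.3% and the response element core in 8.56%, against 1 and 2 of the 9 windows of these genes. The letters GGNNNTTCC, a core of NF-kB sites, were in 18.5% of all windows and in 0 of 9 here. The CCAAT box was in 37.4% of all windows and in 3 of 9 here, those of Tapbp, Psmb9 and Tap1, and the match of Psmb9 and Tap1 is the same stretch of DNA. The GC box GGGCGG was in 35.7% of all windows and 7 of 9 here. These 7 are not independent, since the 2 windows of Psme2 hold the same sites and Psmb9 and Tap1 share a site. These are matches of letters only.

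Gm39822 itself (chr11:51897312-51909624) was counted 2, 1, 4 and 2 times after its GapmeR (samples 1 to 4), against 61 and 56 times in Negative Control 1 and 2. Its log2 fold change was -4.82 (SE 0.41, adjusted p = 8.82e-08, edgeR's quasi-likelihood test), which agreed in direction with the labels. GapmeR libraries held between 30264086 and 37117934 counts, and the control libraries 29261988 and 34266811. Levels are given as CPM, that is counts relative to a library total scaled by TMM factors, with the SD between samples (n = 4 GapmeR, n = 2 controls). The 6 endothelial markers summed to 5331 to 6139 CPM in the GapmeR samples and 6826 to 7054 in the controls, with 3 of 6 lower (Cdh5, Kdr and Pecam1). The 8 macrophage markers summed to 224, 205, 344 and 376 CPM in GapmeR samples 1 to 4 and to 175 and 171 in the controls, none of them at 0, with 1 of 8 higher (Cd68). The 6 lymphocyte markers summed to 0.805 to 1.03 CPM in the GapmeR samples and 0.292 to 0.47 in the controls, Nkg7 was at 0, and the 1 marker tested, Cd79a, was higher. The 5 pericyte and fibroblast markers summed to 13.4 to 49.95 CPM in the GapmeR samples, highest in sample 3, and to 13.3 to 14.4 in the controls. Col1a1 alone made up 38.0 CPM of the sum in sample 3, and was at 2.21, 3.24 and 4.58 CPM in GapmeR samples 1, 2 and 4. The part of these markers in the results was not tested. In bulk RNA, fewer cells of a type and less RNA per cell cannot be told apart.

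All 10 genes were lower after the GapmeR, at an adjusted p under 0.05 in edgeR's quasi-likelihood test, and in each of them every GapmeR sample lay below both controls. Log2 fold changes ran from -1.09 for Erap1 to -0.46 for Psmb8, with a median of -0.67, and 7 of the 10 fell by at least 1.5-fold. The knockdown changed much of the transcriptome, and these counts are to be read against that. Of the 18234 genes tested, 20.0% were lower and 25.4% higher, 27.3% had all GapmeR samples below both controls, and 7.62% were lower by at least 1.5-fold. The median log2 fold change of all genes was 0.03. Among the 8821 genes with a mean of at least 10 CPM, a level all 10 genes reached, 31.3% were lower. Of these 8821 genes, 3505 had all GapmeR samples below both controls. The filter of 5 counts in 2 samples removed none of the 10, whose counts were far above it in every sample.

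**Figure D1:**
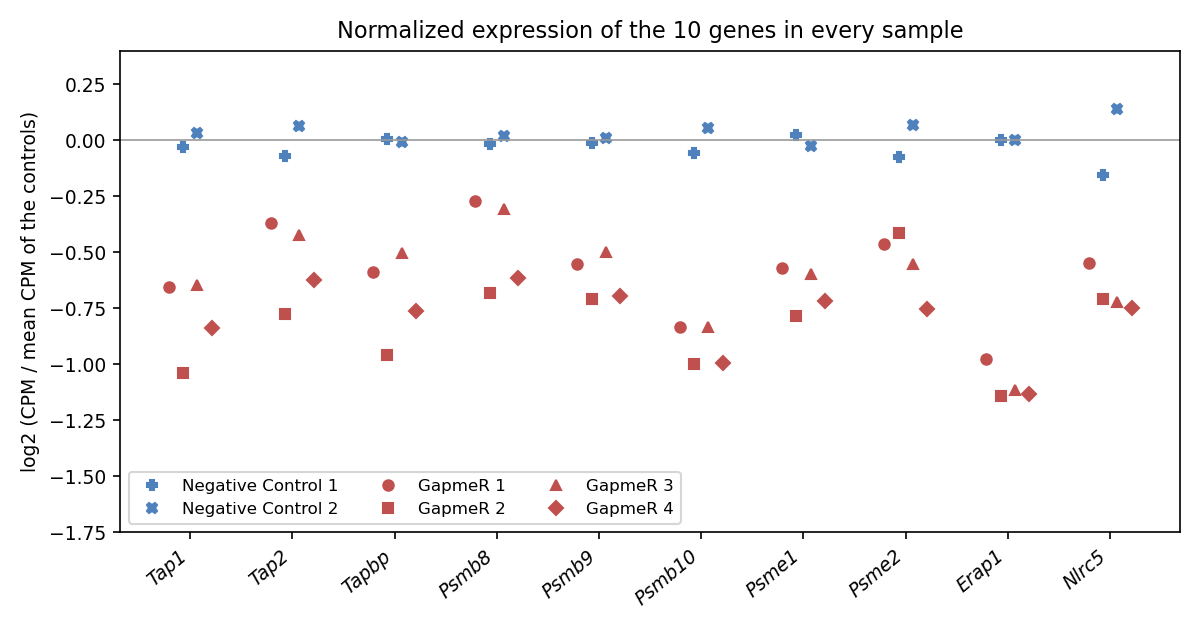
Log2 difference of each gene's TMM-normalized CPM from the mean of the 2 Negative Control samples, with one column of points per gene and one symbol per sample (GapmeR red, Negative Control blue) and the control mean as the line at 0. All 4 GapmeR points lie below both control points for each of the 10 genes, lowest for Erap1 and nearest to the controls for Psmb8.

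Among the subunits of the immunoproteasome, Psmb10 changed most. Psmb10, which carries the trypsin-like activity, was at 209, 186, 208 and 186 CPM in GapmeR samples 1 to 4, against 357 and 386 in Negative Control 1 and 2. It fell by 0.91 on the log2 scale (SE 0.08, adjusted p = 8.25e-08, edgeR's quasi-likelihood test), from 372 ± 20.4 to 197 ± 13.0 CPM. The highest GapmeR sample was thus far below the lower control. Psmb9, the subunit that replaces Psmb6, was at 68.4, 61.2, 70.9 and 61.8 CPM against 99.4 and 100.8, a log2 fold change of -0.61 (SE 0.08, adjusted p = 6.92e-06, edgeR). Psmb8, the chymotrypsin-like subunit, was at 388, 292, 378 and 306 CPM against 463 and 475, a log2 fold change of -0.46 (SE 0.11, adjusted p = 0.00339, edgeR). The GapmeR samples spread most in Psmb8, with a coefficient of variation of 14.4%, and samples 1 and 3 lay nearest to the controls. Psmb8 was also the only one of the 10 whose call depended on a single library. Without Negative Control 2 its log2 fold change was -0.42 and its adjusted p 0.0586 in edgeR's quasi-likelihood test, against adjusted p-values of 5.57e-08 to 0.0371 in the other settings tried.

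Both PA28 subunits fell. Psme1 was at 285, 246, 280 and 257 CPM against 430 and 416, a log2 fold change of -0.66 (SE 0.08, adjusted p = 3.43e-06, edgeR's quasi-likelihood test). Psme2, its partner, was at 336, 347, 316 and 274 CPM against 440 and 486, a log2 fold change of -0.54 (SE 0.09, adjusted p = 0.000142, edgeR). Psme2 was the only one of the 10 genes whose highest GapmeR value came from GapmeR 2.

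The transporter and tapasin fell as well. Tap1 was at 306, 235, 309 and 270 CPM against 473 and 494, and so fell from 483 ± 14.97 to 280 ± 34.8 CPM (log2 fold change -0.79, SE 0.10, adjusted p = 1.17e-05, edgeR's quasi-likelihood test). Tap2, the other chain of the transporter, was at 188, 142, 181 and 158 CPM against 232 and 255, with a log2 fold change of -0.54 (SE 0.10, adjusted p = 0.000527, edgeR). Tapbp was at 788, 610, 836 and 698 CPM against 1191 and 1180, with a log2 fold change of -0.69 (SE 0.10, adjusted p = 8.08e-05, edgeR). In Tap1, Tap2 and Tapbp, as in the catalytic subunits, GapmeR 2 was the lowest sample.

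Erap1, the aminopeptidase that trims peptides in the endoplasmic reticulum, changed most of the 10. It was at 48.5, 43.2, 44.1 and 43.5 CPM against 95.5 in both controls, 2.13-fold lower (log2 fold change -1.09, SE 0.07, adjusted p = 3.4e-09, edgeR's quasi-likelihood test). It also varied least among the GapmeR samples, with a coefficient of variation of 5.46%. Nlrc5, the transactivator, had the lowest level, 13.1, 11.8, 11.6 and 11.4 CPM against 17.2 and 21.2, a log2 fold change of -0.68 (SE 0.10, adjusted p = 6.66e-05, edgeR). The 2 controls differed more for Nlrc5 than for any other of these genes relative to their mean.

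The GapmeR samples kept an order across most of the genes. GapmeR 2 was the lowest sample for 8 of the 10, and GapmeR 4 for Psme2 and Nlrc5, while GapmeR 1 was the highest for 6 and GapmeR 3 for 3. The median difference of the 10 genes from the control mean was -0.56, -0.78, -0.57 and -0.75 on the log2 scale in GapmeR samples 1 to 4. The summed macrophage markers were highest in samples 3 and 4. The sum of the pericyte and fibroblast markers was highest in sample 3, mostly through Col1a1 (38.0 CPM there). With GapmeR 1 and 2 alone, a setting chosen after the data were seen, all 10 genes were still lower, from -0.42 for Psme2 to -1.04 for Erap1. Scaling by library size only raised the median of all genes from 0.03 to 0.17, a shift of 0.15. All 10 genes stayed lower, from -0.31 for Psmb8 to -0.94 for Erap1. With that scaling 2135 genes were lower and 6106 higher, against 3643 lower and 4625 higher with TMM.

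The level per kb of transcript sets the 10 genes side by side. In the controls, CPM per kb of the canonical GENCODE transcript was highest for Psme2 (480) and Tapbp (398), followed by Psmb10 (283), Psmb8 (275), Tap1 (156), Psme1 (100.1), Psmb9 (74.0), Tap2 (61.2), Erap1 (16.9) and Nlrc5 (2.54). The ranges of Psmb10 and Psmb8 overlapped in the controls, while those of the other neighbours in this order did not. The constitutive subunits were at 235 CPM per kb for Psmb7, 234 for Psmb6 and 70.7 for Psmb5 in the same cells. In the GapmeR samples Psmb10 was at 150 CPM per kb against 212 for its constitutive counterpart Psmb7, whereas in the controls it stood above Psmb7. Psmb8 stayed above Psmb5 in both groups, at 200.4 against 67.3 in the GapmeR samples. The order depends on the length used. For Psme1 the canonical transcript held 4227 bases, more than the genomic span given above, against 965 for Psme2. Before division by length, Psme1 and Psme2 were at 423 and 463 CPM in the controls. The gap between them per kb thus comes mostly from the lengths. With the union of all annotated exons, Tapbp led, then Psmb10 and Psme2, and Psmb10 stayed above Psmb7 in both groups (114 against 40.8 CPM per kb in the GapmeR samples).

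**Figure D2:**
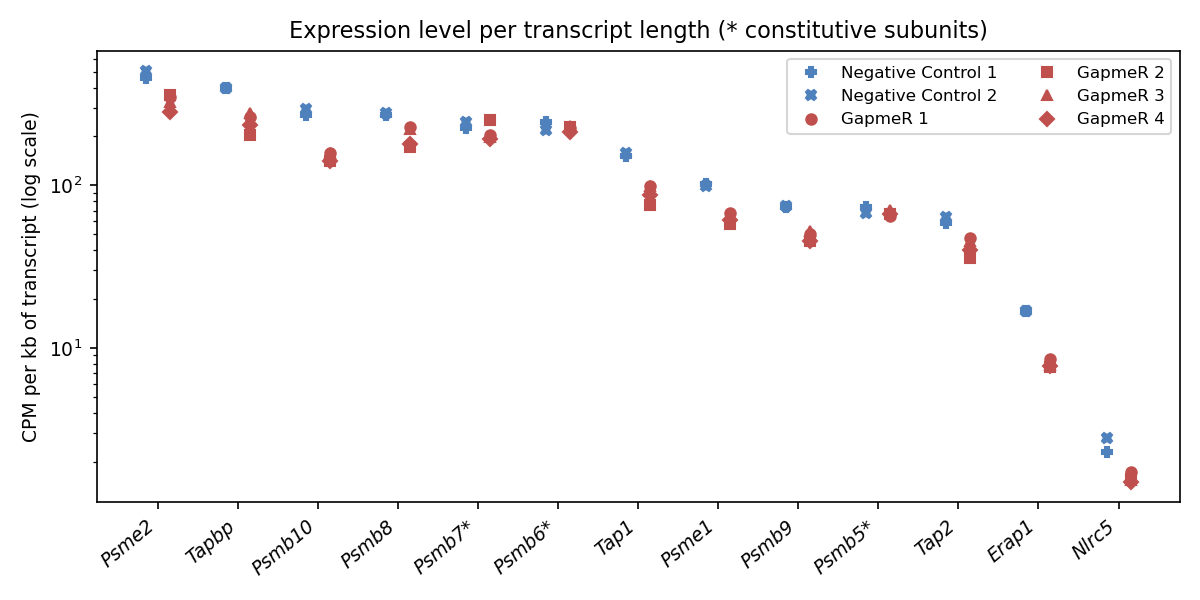
CPM per kb of canonical transcript on a log axis for the 10 genes and the 3 constitutive catalytic subunits, with one symbol per sample (GapmeR red, Negative Control blue). Psme2 and Tapbp lead and Nlrc5 is lowest in both groups, while Psmb10 lies above Psmb7 in the controls and below it in the GapmeR samples at this choice of length.

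With all samples, none of the 3 constitutive catalytic subunits passed the test in either direction. Psmb5, Psmb6 and Psmb7 had log2 fold changes of -0.07, -0.06 and -0.15, with adjusted p-values of 0.445, 0.563 and 0.23 in edgeR's quasi-likelihood test. The unadjusted p-values of this test were 0.339, 0.458 and 0.147, and DESeq2's Wald test gave adjusted p-values of 0.537, 0.632 and 0.25. Their signs are not settled by these data, as scaling by library size only gave 0.08, 0.09 and 0.00 and leaving out Negative Control 1 gave 0.02 for Psmb5 and 0.04 for Psmb6. Without GapmeR 2, Psmb7 was lower, with a log2 fold change of -0.24 and an adjusted p of 0.0038 in edgeR's quasi-likelihood test, and its adjusted p over all settings lay between 0.0038 and 0.995. The ratio of each immunoproteasome subunit to the subunit it replaces was therefore taken within each sample, where scaling cancels. The count ratio of Psmb10 to Psmb7 was 0.884, 0.639, 0.902 and 0.828 against 1.37 and 1.36 in the controls. That of Psmb9 to Psmb6 was 0.293, 0.259, 0.293 and 0.281 against 0.389 and 0.441. That of Psmb8 to Psmb5 was 3.51, 2.57, 3.15 and 2.7 against 3.67 and 4.14. In each of the 3 ratios all GapmeR samples lay below both controls, closest for Psmb8. The differences in the log2 ratio were -0.76, -0.56 and -0.40, and leaving out any sample or blocking on the replicate number left each of them negative. Two-sided exact permutation tests gave p = 0.0667 for Psmb10, 0.0667 for Psmb9 and 0.133 for Psmb8 (Benjamini-Hochberg adjusted 0.1, 0.1 and 0.133 over the 3). With 15 arrangements of 4 against 2 samples, 0.0667 is the smallest p the design allows.

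**Figure D3:**
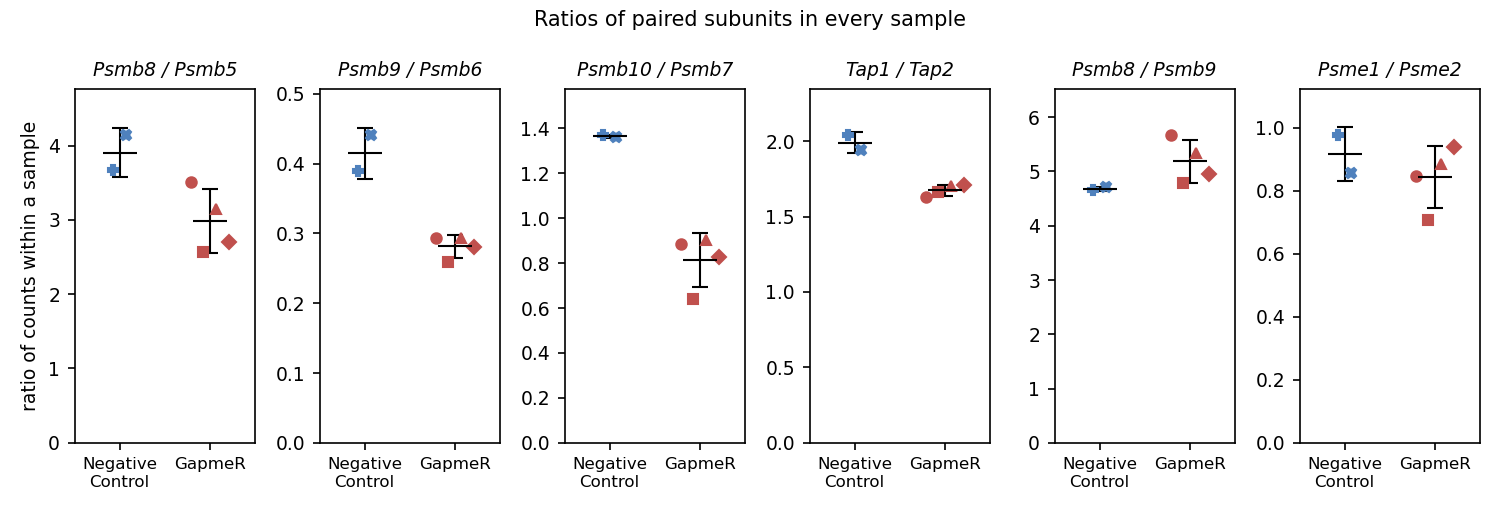
Count ratio within each sample for 6 pairs of genes, one panel per pair and one symbol per sample (GapmeR red, Negative Control blue), on linear axes that start at 0, with bars at the mean ± SD. The 4 GapmeR points lie below both control points for the 3 pairs of an immunoproteasome subunit and its constitutive counterpart and for Tap1 over Tap2, above them for Psmb8 over Psmb9, and among them for Psme1 over Psme2.

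Ratios between genes of the set were compared in the same way. The exact test could not pass any of them at the threshold used here, because the smallest p this design allows is 0.0667. Only the direction and size of the differences are therefore read. The ratio of Tap1 to Tap2 counts was 1.63 to 1.71 after the GapmeR against 2.04 and 1.94, a log2 difference of -0.25 (two-sided exact permutation p = 0.0667, adjusted 0.2). The ratio of Psmb8 to Psmb9 was higher, 5.67, 4.78, 5.34 and 4.95 against 4.65 and 4.71 (log2 difference 0.14, exact permutation p = 0.133, adjusted 0.2). The PA28 ratio of Psme1 to Psme2 overlapped between the groups, at 0.707 to 0.938 against 0.977 and 0.856 (log2 difference -0.12, exact permutation p = 0.467, adjusted 0.467). The last difference rests on single libraries, as it was -0.03 without Negative Control 1, -0.22 without Negative Control 2 and -0.04 without GapmeR 2.

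The rest of the route was read from 9 companion lists with 64 of 65 genes tested, of which 23 were lower and 6 higher, where 20.0% of all tested genes, and 31.3% of those with a mean of at least 10 CPM, were lower. All 3 class I molecules fell, H2-K1 by 1.26, H2-D1 by 0.96 and the light chain B2m by 0.87 on the log2 scale. Among the chaperones of the endoplasmic reticulum that serve class I loading, 4 of 7 were lower and 1 higher, with a median of -0.40. Tapbpl, or TAPBPR, the tapasin relative that edits peptides away from the transporter, was 24.6 ± 2.41 CPM against 58.7 ± 0.685 (log2 fold change -1.26, adjusted p = 7.76e-09, edgeR's quasi-likelihood test). Pdia3, the disulfide isomerase bound to tapasin, fell by 0.56 and calreticulin (Calr) by 0.44. Uggt1, which returns misfolded glycoproteins to the calreticulin cycle, went the other way, at 104 ± 7.88 CPM against 35.7 ± 5.05 (log2 fold change 1.54, adjusted p = 3.94e-09, edgeR's quasi-likelihood test).

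Other proteasome genes moved less. Counts in these lists are to be read against the 20.0% of all tested genes that were lower. Of the genes with a mean of at least 10 CPM, 31.3% were lower. Of 11 further core subunits 4 were lower and 0 higher, at a median of -0.13, with Psmb1 at -0.35, Psma5 at -0.31, Psma4 at -0.23 and Psmb4 at -0.19. All 4 calls were lost with library size only and without Negative Control 1, and those of Psma5, Psma4 and Psmb4 also without Negative Control 2 and with the replicate block (adjusted p of 0.108, 0.101 and 0.268, edgeR's quasi-likelihood test). The call of Psmb4 was further lost with DESeq2's size factors, with both other filters and without GapmeR 1, 3 or 4. Of 7 other activators and assembly factors 2 were lower, the assembly chaperones Pomp (-0.36) and Psmg3 (-0.34), and the median was 0.00. The call of Psmg3 was lost with library size only and without Negative Control 1. Among 6 other peptidases of the class I route, Lnpep, an aminopeptidase of endosomes, was lower (-0.59), and Npepps (0.35) and Thop1 (0.26), both peptidases of the cytosol, were higher. Thop1 lost its call without Negative Control 2.

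Upstream of these genes, 8 of 14 genes of interferon signalling were lower and 1 higher, at a median of -0.25, to be read against the same 20.0% and 31.3% of genes lower. Irf1, a transcription factor that interferons induce, was 85.4 ± 8.16 against 156 ± 4.41 CPM (log2 fold change -0.87, adjusted p = 4.12e-07, edgeR's quasi-likelihood test). Socs3, a feedback inhibitor of cytokine receptors, fell by 0.91, and Ifngr2, a chain of the interferon gamma receptor, by 0.50. Of 7 genes whose proteins bind class I promoters together with Nlrc5, Rfxank was lower (-0.49) and Nfyb higher (0.24), while Rfx5 was at -0.25 with an adjusted p of 0.0897 in edgeR's quasi-likelihood test. The calls of Rfx5 and Nfyb turned on single libraries. Without GapmeR 1, Rfx5 was lower (-0.34, adjusted p = 0.0259, edgeR), and Nfyb lost its call without GapmeR 1, Negative Control 1 or Negative Control 2 (adjusted p of 0.0671, 0.223 and 0.0591, edgeR). In the class II pathway, which loads peptides by another route, 0 of 6 tested genes were lower and 1 was higher. All 6 had low levels, the highest being Cd74 at 1.40 CPM against 0.84 in the controls. A fall could hardly be called at such levels, so the 0 of 6 says little. H2-Ab1 was at 0.707 CPM against 0.284 in the controls (log2 fold change 1.34, adjusted p = 0.0478, edgeR's quasi-likelihood test), with overlapping groups and 3 to 28 counts a sample. This call was lost with DESeq2's Wald test (adjusted p = 0.0633) and the replicate block (0.0843), and when GapmeR 1, 3 or 4 or Negative Control 2 was left out (adjusted p of 0.0768, 0.068, 0.0944 and 0.449, edgeR's quasi-likelihood test). The log2 fold change was 0.58 without Negative Control 2 and 2.87 without Negative Control 1. The class II transactivator Ciita had 1 to 6 counts a sample and was not tested.

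**Figure D4:**
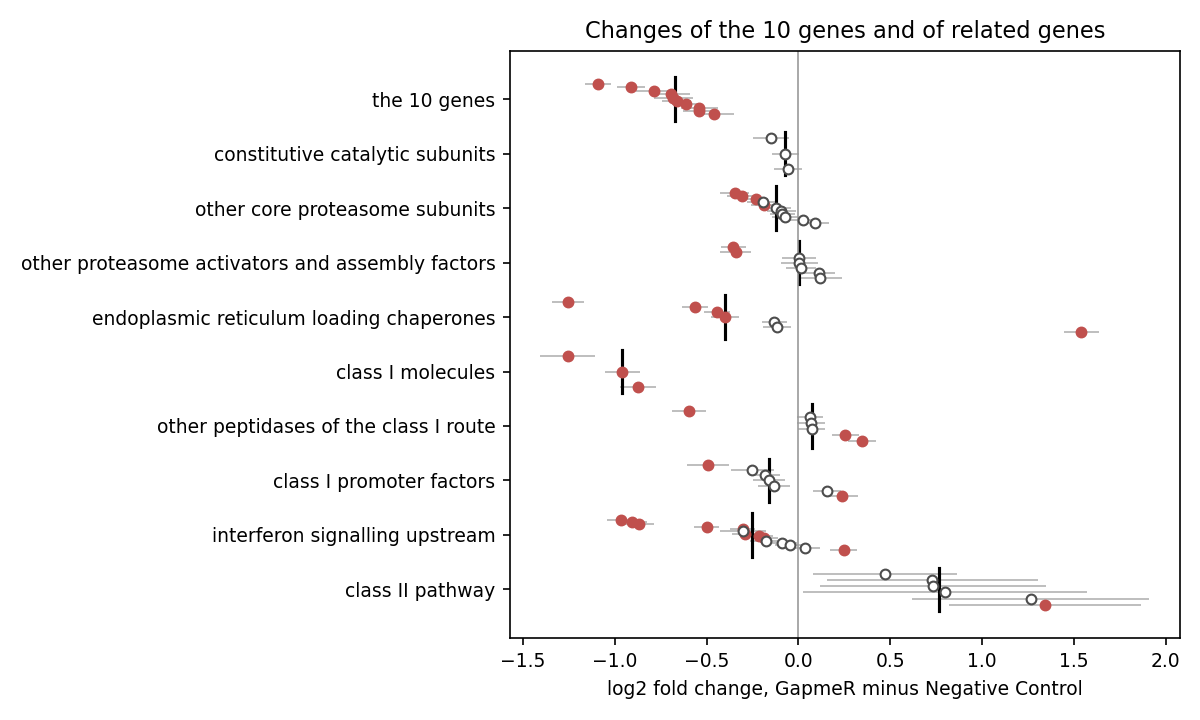
Log2 fold change (GapmeR against Negative Control) of each tested gene of the 10 and of the 9 companion lists, one row per list, with filled points for genes with an adjusted p under 0.05 open points for the others, grey lines of 1 SE to each side and a black bar at the median of the list. The 10 genes and the class I molecules lie left of 0, the constitutive catalytic subunits lie near 0, and the chaperones are split by Uggt1 on the right.

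Genes around them moved in both directions. Of 63 tested genes that the RefSeq table, matched by symbol, places within 100 kb of any of the 10, 17 (27.0%) were lower and 24 (38.1%) higher, at a median log2 fold change of 0.08. Over all tested genes, 20.0% were lower and 25.4% higher. The lower neighbours include H2-K1 (-1.26) and a gene of the interferon signalling list, both already counted above. Around the cluster of Psmb9, Tap1, Psmb8 and Tap2, 0 of 8 such neighbours were lower and 3 were higher, Brd2 (0.53), H2-Ab1 and BC051537. The call of H2-Ab1 was lost in the settings given above. These 3 were named after their values were seen. Apart from Brd2 (745 against 517 CPM), none of the 8 had a group mean above 0.825 CPM, and BC051537 was at 0.525 against 0.018 CPM. A fall could hardly be called at such levels, so the 0 of 8 says little about genes next to the cluster. The neighbours with the largest changes all rose. B3galt4, a glycosyltransferase gene 20.6 kb from Tapbp, had 2201, 2465, 2204 and 2255 counts against 45 and 56 (log2 fold change 5.30, adjusted p = 2.57e-14, edgeR's quasi-likelihood test). H2-Ke6, 96.7 kb from Tapbp, had 146, 166, 103 and 104 counts against 6 and 2 (log2 fold change 4.77, adjusted p = 3.24e-08, edgeR's quasi-likelihood test). Slc12a3, a sodium chloride cotransporter gene 68.1 kb from Nlrc5, had 19, 29, 19 and 31 counts and none in either control, at least 7.05-fold higher when each control library is set to 3 counts.

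Several of the 10 genes share exon sequence with a neighbour in the GENCODE annotation, and the strand setting of the counting is not given in the sources used here. Psmb9 and Tap1 share 743 exon bases on opposite strands. Psme1 shares 39.6% of its exon bases with Emc9 and Psme2 shares 30.8% with Rnf31, both on the opposite strand. Tapbp shares 20.9% with Zbtb22 on the same strand and 25.6% with Gm19412 on the opposite strand. Erap1 shares 10.3% with Cast on the opposite strand. Cast had 4039 to 5912 counts a sample and was itself lower (log2 fold change -0.42). Values of these genes are uncertain to the extent that reads were split, and the effect was not tested.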

How the data were processed

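Total RNA of 6 bEND.3 samples was sequenced in paired ends after ribodepletion. The authors trimmed and aligned reads to mm10 (GRCm38) with STAR and processed them with bcbio-nextgen. The submitters' notes list Trimmomatic 0.36, STAR 2.5.2b and Subread 1.5.2. The authors deposited raw counts per Ensembl gene, and 1 further column of per-sample counts was not used in any step. The study states 4 samples a group, of which 2 controls are analysed here. The strand setting of the counting is not given in the sources used here, so reads of overlapping genes may be shared.

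Groups came from the sample titles. Genes reaching 5 counts in 2 or more samples were tested with edgeR 4.0.16 in R 4.3.3 (TMM normalization, robust quasi-likelihood fit, Benjamini-Hochberg adjustment over all 18234 genes, threshold 0.05). The standard error is the log2 fold change divided by the square root of F. TMM factors were 1.02 to 1.05 (GapmeR) and 0.931 and 0.936 (controls). Chi-square per degree of freedom between replicates was 5.41 to 25.2, so no sample was a repeat within sampling noise. Ratios of counts within a sample were compared by exact permutation tests over samples. Promoter windows came from RefSeq (GRCm38.p6), and transcript lengths and exon overlaps from GENCODE on GRCm39. The functions were tested on simulated data.

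The genes and all lists were chosen with earlier results of these data known. The genes named were the 10, Gm39822, the constitutive catalytic subunits, Irf1, Rfx5, up to 4 called genes of each companion list with the largest change, and the 3 neighbouring genes with the largest change. One further gene named by this rule is not reported here. Alternatives were DESeq2 1.42.0 (size factors and Wald test), limma-voom (limma 3.58.1), library size only, 2 other filters, a fold threshold of 1.5, the replicate block and each sample left out in turn.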

Additional observations from a re-analysis of the deposited data

Results flagged for a closer look

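In 4 of 44 values examined, the sample at the edge of the GapmeR group stood farther from the others than Dixon's critical value for 4 samples at the 5% level allows, and chance alone flags about 5% of such groups. For Erap1 the gap was 0.833 of the range, since GapmeR 1 was at 48.5 CPM and the others at 43.2 to 44.1. For Psma4 it was 0.91, with GapmeR 2 at 148 CPM and the others at 141 to 142. For Psmb4 it was 0.867, with GapmeR 4 at 324 CPM and the others at 340 to 342. For Thop1 it was 0.878, with GapmeR 2 at 94.8 CPM and the others at 105.5 to 107. The 4 values came from 3 different samples.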

How the results depend on the processing

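Each of the 10 genes was lower in each of 13 other settings and past the threshold in all of them, except Psmb8 without Negative Control 2. The number of all genes lower was 3643, 2135 with library size only, 1390 with at least 1.5-fold, and 1930 to 3949 when each sample was left out, the lowest without Negative Control 2 (2262 without Negative Control 1). In the companion lists 14 genes were lower and 12 higher with library size only, and 3 to 7 were higher when each sample was left out, 3 of them without Negative Control 2. The signs of Psmb5, Psmb6 and Psmb7 reversed with library size only (0.077, 0.0907 and 0.00096) and those of Psmb5 and Psmb6 without Negative Control 1, with ranges of -0.117 to 0.017 and -0.115 to 0.0441 when each sample was left out. Psmb7 lay between -0.238 and -0.0688 in the same way, and was called lower without GapmeR 2. The cause was not tested. Whether the replicate numbers pair the samples cannot be told from 2 controls. Deviations of same-numbered samples from their group mean correlated at -0.0771 and 0.14, but the 2 controls deviate by equal and opposite amounts. With the replicate block 10 of the 10 genes, and 3295 of all genes, were lower. Only 2 controls were analysed, so the control spread is poorly known. No intervals for counting error are given, and this error is not small for named genes with few counts. Among them are Gm39822, Slc12a3, Ciita, H2-Ab1, H2-Ke6 and BC051537.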
